A study of Mus musculus with 10 samples.

Results

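In cranial neural crest cells that lacked Kat5 or Ep400, FGF receptor genes were followed beside 7 genes that report on or restrain ERK signalling. The receptor genes were *Fgfr1*, *Fgfr2* and *Fgfr3*. Of the 7, *Spry1*, *Spry2* and *Spry4* are Sprouty genes and *Dusp4* and *Dusp6* are MAP kinase phosphatase genes. *Etv4* and *Etv5* are PEA3 transcription factor genes. All 10 were taken by gene symbol from a table of read counts, in which 10 of 43346 rows are these genes. The rows were matched by symbol and not by their values, but the genes were chosen with earlier results of these data known.

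O9-1 is a tetraploid cell line from the mouse cranial neural crest. The 10 libraries came from 4 biological replicates of wildtype O9-1 cells, 3 Kat5 ko clones (Kat5/1 to Kat5/3) and 3 Ep400 ko clones (Ep400/1 to Ep400/3). Kat5 is the histone acetyltransferase and Ep400 the ATPase of the same chromatin remodeling complex. All groups grew on Matrigel in medium that had been conditioned by STO fibroblasts and then received FGF2, so the receptors were exposed to added ligand in every group. Each clone descended from 1 cell after Cas9 editing and sorting, whereas cloning is not stated for the wildtype samples, so that effects of cloning and of the mutation cannot be told apart. By the study's account, the edits shift the reading frame in every allele of the Kat5 ko clones and of clone Ep400/1, while clones Ep400/2 and Ep400/3 keep some alleles with a deletion in frame at the ATP binding site.

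FGF receptors are tyrosine kinases at the cell surface. Once bound by FGF and heparan sulfate they activate RAS, the RAF and MEK kinases and finally ERK. ERK signalling induces its own brakes: Sprouty proteins act upstream in the cascade and the phosphatases Dusp4 and Dusp6 remove phosphate from ERK. *Etv4* and *Etv5* are induced by the same pathway and encode ETS transcription factors, so that the RNA of all these genes is commonly read as a record of FGF signalling. In the cranial neural crest, FGF signals support survival, proliferation and patterning of the facial mesenchyme.

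To show what the start regions of the genes in question look like, the bases before the RefSeq start were read from the GRCm38.p6 promoter table, which held windows for 6 of the 10 genes. *Fgfr1*, *Spry4*, *Dusp4* and *Etv4* were not among them. Bases within annotated exons were left out, which shortened a window of *Fgfr3* to 200 and a window of *Etv5* to 101 bases. *Fgfr3* and *Etv5* each had a further window of 250 bases. The shorter window of *Fgfr3* is shown. Capitals mark 2 core motifs of ETS factors, CGGAAG and AGGAAG, which do not overlap each other and were sought on both strands (CTTCCG and CTTCCT on the other). CGGAAG occurs in 13.6% and AGGAAG in 29.5% of all 32851 windows of 250 bases. The windows of 4 genes are shown, the receptor gene with the largest difference between groups (*Fgfr3*), the other low receptor gene (*Fgfr2*), the Sprouty gene with the highest level (*Spry2*) and the phosphatase gene with both motifs (*Dusp6*).
Fgfr3, chr5:33721474-33721673, plus strand: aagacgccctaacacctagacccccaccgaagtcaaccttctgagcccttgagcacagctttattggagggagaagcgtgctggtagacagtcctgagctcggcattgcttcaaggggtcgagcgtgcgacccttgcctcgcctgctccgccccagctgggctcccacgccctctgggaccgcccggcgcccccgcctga
Fgfr2, chr7:130266809-130267058, minus strand: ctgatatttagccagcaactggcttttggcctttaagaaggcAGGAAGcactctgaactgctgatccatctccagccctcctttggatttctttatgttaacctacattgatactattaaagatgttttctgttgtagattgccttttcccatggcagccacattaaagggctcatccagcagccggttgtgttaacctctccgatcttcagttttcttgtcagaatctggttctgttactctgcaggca
Spry2, chr14:105896820-105897069, minus strand: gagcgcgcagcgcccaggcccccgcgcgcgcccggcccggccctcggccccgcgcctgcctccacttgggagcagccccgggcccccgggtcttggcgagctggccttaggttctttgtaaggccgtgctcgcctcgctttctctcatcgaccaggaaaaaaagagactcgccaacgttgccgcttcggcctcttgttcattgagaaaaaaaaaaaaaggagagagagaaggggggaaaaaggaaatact
Dusp6, chr10:99262981-99263230, plus strand: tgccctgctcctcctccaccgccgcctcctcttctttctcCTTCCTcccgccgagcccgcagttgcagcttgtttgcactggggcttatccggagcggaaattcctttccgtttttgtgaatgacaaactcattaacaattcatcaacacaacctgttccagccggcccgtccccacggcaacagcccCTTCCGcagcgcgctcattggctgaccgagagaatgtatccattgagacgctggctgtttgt
The window of *Dusp6* held each motif 1 time and that of *Fgfr2* held AGGAAG 1 time. Those of *Fgfr3*, *Spry2*, *Spry1* and *Etv5* held neither. The letters TGACGTCA, which a CREB site has and which 1.55% of all windows hold, and TGANTCA of AP-1, which 6.75% hold, were in none of these stretches of the 6 genes.

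Between 30968945 and 48301792 reads per library were counted on genes. Levels are given in CPM, which are counts scaled to a common library size with TMM factors, and 1 read amounted to 0.0220 to 0.0329 CPM. Comparisons used edgeR's quasi-likelihood test across all genes with Benjamini-Hochberg adjustment, and a gene was called at an adjusted p of at most 0.05. SE stands for the standard error of a log2-fold change. The targeted genes followed the labels. *Kat5* had 53.7 ± 3.98 CPM (SD, n = 4) in wildtype cells and 20.8 ± 3.83 CPM (SD, n = 3) in Kat5 ko clones, and *Ep400* had 159 ± 3.91 CPM (SD, n = 4) in wildtype cells and 58.6 ± 3.47 CPM (SD, n = 3) in Ep400 ko clones. All 12 markers of cranial neural crest and mesenchyme had a mean of at least 1 CPM in each group. Their summed level was 1653 to 1898 CPM in wildtype libraries, 1597 to 1931 CPM in Kat5 ko clones and 2465 to 3775 CPM in Ep400 ko clones. Markers of epithelium summed to at most 12.4, 31.6 and 0.718 CPM in these groups, those of endothelium to at most 1.68 CPM, of leukocytes to at most 7.81 CPM, of Schwann cells and melanocytes to at most 6.29 CPM and of pluripotent cells to at most 0.110 CPM in any library. Smooth muscle markers summed to 685 CPM in clone Kat5/1, where *Acta2* had 504 and *Tagln* 180 CPM, and to 0.461 CPM in Kat5/2, against at most 16.6 CPM in wildtype cells and 58.8 CPM in Ep400 ko clones. The neural crest sum was higher in the Ep400 ko clones than in the other groups, which overlapped, and 4 of its 12 markers had a negative log2-fold change there against wildtype. The part of these marker levels in the results was not tested.

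Per kilobase of exon, *Etv4* had the highest mean in wildtype cells, with 50.4 ± 20.1 CPM per kilobase (SD, n = 4). *Etv5* with 34.5 ± 2.68, *Fgfr1* with 34.4 ± 12.4 and *Spry2* with 33.8 ± 3.03 CPM per kilobase followed, and these neighbours differed by less than their spread. *Dusp6* (17.7 ± 3.10) and *Dusp4* (15.99 ± 6.001) also lay within each other's spread and stood above *Spry4* (8.34 ± 1.03 CPM per kilobase). The remaining genes were scarce, with 1.21 ± 0.268 for *Fgfr2*, 0.460 ± 0.198 for *Spry1* and 0.0164 ± 0.0148 CPM per kilobase for *Fgfr3*. Of the summed level per kilobase of *Fgfr1* to *Fgfr4*, *Fgfr1* made up 96.3% ± 0.801 (SD, n = 4) in wildtype cells, 97.4% ± 0.668 (SD, n = 3) in Kat5 ko clones and 96.0% ± 2.31 (SD, n = 3) in Ep400 ko clones. It was thus the predominant receptor RNA in each library, at 93.5% or more. Counts per gene do not separate the IIIb and IIIc isoforms of the receptors, which differ in the ligands they bind. In the Ep400 ko clones the order differed from that in wildtype cells. *Etv4* stood at rank 7 of the 10 mean levels per kilobase instead of rank 1, and *Spry2* was at rank 1 with 60.3 ± 22.3 CPM per kilobase (SD, n = 3). *Fgfr1* followed with 44.5 ± 13.4 CPM per kilobase, within the spread of *Spry2*. Likewise, *Etv4* with 15.6 ± 8.72 lay within the spread of *Spry4* with 19.9 ± 7.19 CPM per kilobase, so the order of such neighbours is not settled.

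**Figure D1:**
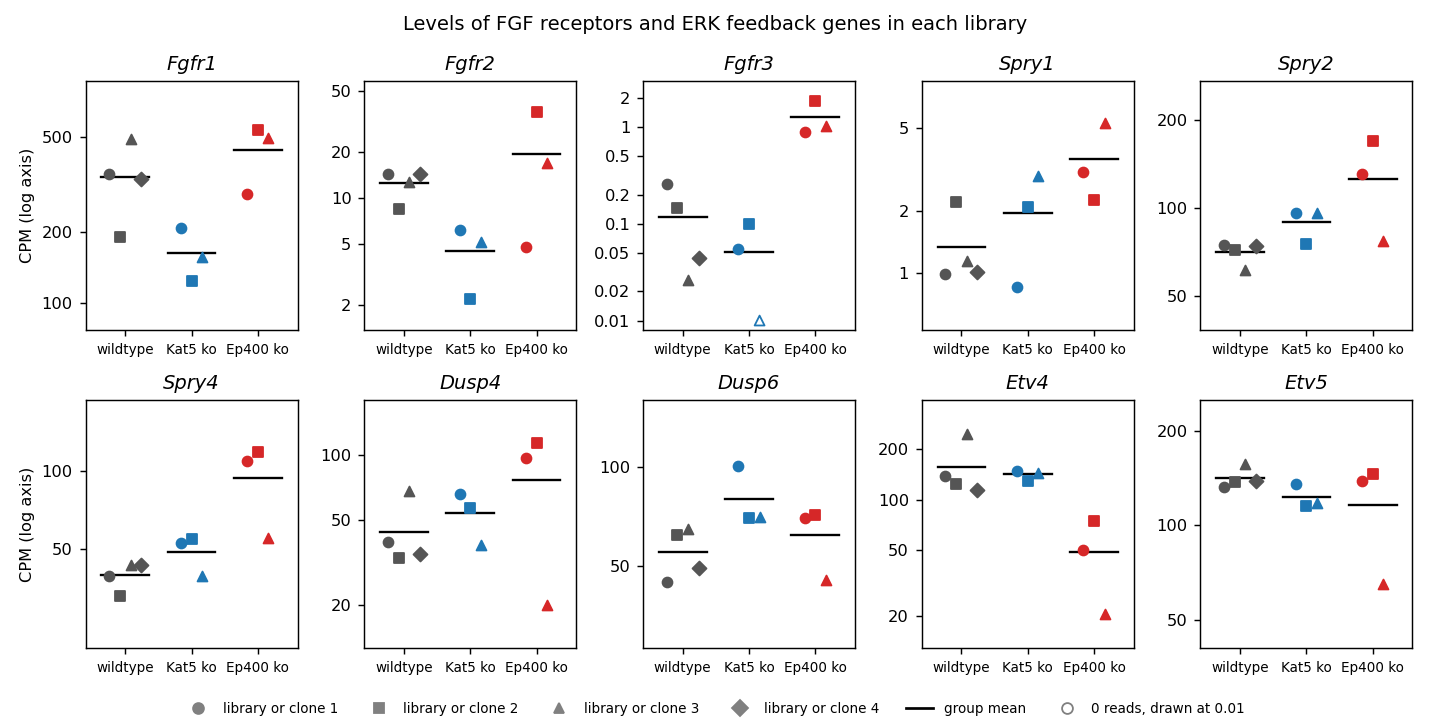
Level of each gene in CPM (log axes with their own ranges) in the 4 wildtype libraries, 3 Kat5 ko clones and 3 Ep400 ko clones. Points are libraries, with the shape giving the library or clone number, lines are group means and the open point at 0.01 stands for 0 reads. All Ep400 ko clones lie above all wildtype libraries for *Fgfr3*, *Spry1*, *Spry2* and *Spry4* and below them for *Etv4*, and all Kat5 ko clones lie below the wildtype libraries for *Fgfr2*.

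In Kat5 ko clones, none of the genes passed the test. Both tested receptor genes had lower means than in wildtype cells, and the Sprouty and phosphatase genes had somewhat higher means. Of 9 genes tested 0 were called, against 0.499% of all genes (67 of 13434). At an unadjusted p of at most 0.05, which 22.3% of all genes reached, there were 3 genes (*Fgfr1*, *Fgfr2* and *Dusp6*). DESeq2 called 2 of them (*Fgfr1* and *Fgfr2*), with 6.31% of all genes called, and limma-voom called 0. *Fgfr3*, with 0 to 3 reads per clone, was below the filter on low counts and was not tested.

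*Fgfr1* (chromosome 8 from 25513654 to 25575718, GRCm38), which encodes the main FGF receptor of mesenchyme, had 350, 189, 488 and 333 CPM in the wildtype libraries and 206, 124 and 157 CPM in Kat5/1, Kat5/2 and Kat5/3. The groups overlapped because wildtype library 2 lay below Kat5/1. The log2-fold change was −1.09 (SE 0.32, 95% confidence interval −1.81 to −0.37), with an adjusted p of 0.107 in edgeR's quasi-likelihood test.

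*Fgfr2*, the receptor gene best known from epithelia and bone precursors, had 14.4, 8.49, 12.7 and 14.3 CPM in wildtype cells and 6.17, 2.21 and 5.16 CPM in the Kat5 ko clones. Each clone was below each wildtype library, a separation that 10.2% of all genes showed in this direction. The log2-fold change was −1.49 (SE 0.38, 95% confidence interval −2.37 to −0.62), with an adjusted p of 0.0901 from edgeR. For both receptors the threshold was passed with DESeq2 (adjusted p = 0.0167 for *Fgfr1* and 0.00241 for *Fgfr2*) and in edgeR without clone Kat5/1 (0.0389 and 0.0255), a fit in which 19.3% of all genes were called. Kat5/1 was also the clone with 685 CPM of smooth muscle markers, whose part in this result was not tested. The reads of *Fgfr2* carry a further limit, since its annotated span runs into *Ctbp2* through a readthrough transcript and 2.47% of its stretches of 50 bases occur in other genes.

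Among the brakes of the pathway, *Dusp6*, which encodes the cytoplasmic phosphatase of ERK, had 44.8, 62.3, 64.7 and 49.4 CPM in wildtype cells and 101, 69.8 and 70.5 CPM in the Kat5 ko clones. *Spry2* had 75.0, 71.6, 61.3 and 74.2 CPM against 96.0, 75.3 and 96.3 CPM. For both genes each clone was above each wildtype library, as for 9.66% of all genes, but for *Spry2* clone Kat5/2 was nearly level with wildtype library 1. The log2-fold changes were 0.51 for *Dusp6* (SE 0.20, adjusted p = 0.182 from edgeR) and 0.31 for *Spry2* (SE 0.15, adjusted p = 0.253 from edgeR). For the other genes the groups overlapped. Their log2-fold changes were 0.51 for *Spry1*, 0.27 for *Spry4*, 0.27 for *Dusp4*, −0.17 for *Etv4* and −0.23 for *Etv5*, with adjusted p between 0.316 and 0.739 from edgeR. The 95% confidence intervals of these 5 genes all included 0. They were narrowest for *Etv5* (−0.53 to 0.06) and widest for *Spry1* (−0.62 to 1.65).

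In Ep400 ko clones, *Spry4* rose and *Etv4* fell. *Fgfr3* was called higher as well, but it passed the filter on low counts only through these clones and could enter the test only by being higher there, so that its call adds nothing to the counts. *Spry1* and *Spry2* had higher levels in each clone than in each wildtype library but did not pass the test, and *Fgfr1*, *Fgfr2*, *Dusp4*, *Dusp6* and *Etv5* overlapped with wildtype. Of the 9 genes other than *Fgfr3*, 2 were called, beside 13.9% of all genes (1917 of 13836). In this comparison 30.2% of all genes had groups that did not overlap, as 4 of these 9 genes did. All comparisons with wildtype use the same 4 wildtype libraries. Since RNA came from whole cultures, more RNA per cell and more cells of a kind cannot be told apart.

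*Fgfr3* (chromosome 5 from 33721674 to 33737068) encodes a receptor best known as a restraint on growth of cartilage. Its reads numbered 8, 5, 1 and 2 in the wildtype libraries, 2, 3 and 0 in the Kat5 ko clones and 38, 60 and 41 in Ep400/1, Ep400/2 and Ep400/3. It was close to absent from 7 libraries and low but present in each Ep400 ko clone, at 0.891, 1.87 and 1.020 CPM. The log2-fold change against wildtype was 3.44 (SE 0.69, adjusted p = 0.0161 from edgeR). Pooled over each group, 139 reads in Ep400 ko clones stood against 16 in wildtype cells, a ratio of CPM of 11.3 with an exact 95% interval of 6.72 to 20.3 that covers counting error only. The call was lost without wildtype library 4 (log2-fold change 3.15, adjusted p = 0.0520 from edgeR). Even so, *Fgfr3* made up 0.381% ± 0.0936 (SD, n = 3) of the receptor RNA per kilobase in Ep400 ko clones. The gene G630022F23Rik overlaps it on the opposite strand, and the strand setting of the counts is not stated.

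*Spry4* (chromosome 18 from 38586247 to 38601415) encodes a Sprouty protein that acts on RAS and RAF. It had 39.3, 32.8, 43.2 and 43.3 CPM in wildtype cells and 110, 118 and 55.2 CPM in the Ep400 ko clones. All clones were higher than all wildtype libraries, with clone Ep400/3 much closer to them than the others. The log2-fold change was 1.25 (SE 0.25, adjusted p = 0.0160 from edgeR), and it was 1.24 with an adjusted p of 0.0509 without wildtype library 1. *Spry2*, the more abundant of the Sprouty genes, had 131, 170 and 77.01 CPM in the clones, where Ep400/3 was close to the highest wildtype library at 75.0 CPM. Its log2-fold change was 0.84 (SE 0.24, adjusted p = 0.0511 from edgeR). Without clone Ep400/3 it was 1.09, with an adjusted p of 0.00878. *Spry1*, at 0.990, 2.196, 1.15 and 1.016 CPM in wildtype cells and 3.07, 2.25 and 5.25 CPM in the clones, had a log2-fold change of 1.40 (SE 0.44, adjusted p = 0.0663 from edgeR). Here Ep400/3 was the highest clone and Ep400/2 only just above wildtype library 2. DESeq2 called all 3 Sprouty genes (adjusted p = 0.0134 for *Spry1* and 0.0270 for *Spry2*), at 14.2% of all genes called. Of 15 alternatives, however, *Spry1* passed in only 1 and *Spry2* in 5, whereas *Spry4* passed in 13. The log2-fold changes in these alternatives lay between 0.99 and 1.74 for *Spry1* and between 0.54 and 1.09 for *Spry2*.

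*Etv4* (chromosome 11 from 101769742 to 101785371) had 138, 125, 249 and 114 CPM in wildtype cells and 50.03, 74.6 and 20.6 CPM in the Ep400 ko clones. The highest clone had 74.6 CPM and the lowest wildtype library 114 CPM, so that the groups did not meet. The log2-fold change was −1.69 (SE 0.44, 95% confidence interval −2.70 to −0.68, adjusted p = 0.0386 from edgeR). The call was lost without any one of wildtype libraries 1 to 4 and without Ep400/1 or Ep400/3, with log2-fold changes of −1.82 to −1.33 and adjusted p between 0.0502 and 0.0765. The genes of chromosome 11 were shifted together by medians of −0.17, −0.19 and −0.20 (log2) in the clones, and with these shifts taken out *Etv4* had a log2-fold change of −1.49 and an adjusted p of 0.0523.

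*Etv5*, the close relative of *Etv4*, had 133, 137, 158 and 139 CPM in wildtype cells and 139, 146 and 64.8 CPM in the Ep400 ko clones. Only Ep400/3 lay outside the wildtype range. The log2-fold change was −0.28 (95% confidence interval −0.87 to 0.31), and 0.0041 without Ep400/3. Within a library, the ratio of *Etv5* to *Etv4* CPM was 0.633 to 1.22 in wildtype cells, 0.812 to 0.906 in Kat5 ko clones and 1.95 to 3.15 in Ep400 ko clones. The ratio of *Spry4* to *Etv4* CPM was 0.174 to 0.380, 0.270 to 0.418 and 1.59 to 2.68 in the same order. Relative to *Etv5* and to *Spry4*, *Etv4* was thus lower in each Ep400 ko clone than in each other library. *Spry4* was itself called higher and *Etv4* lower in these clones, so the separation of their ratio followed from those calls and adds nothing to them. These ratios were looked at after the levels had been seen and were not tested. A caution concerns the reads of *Etv5*, since 24.5% of its stretches of 50 bases are shared with the pseudogene Gm4798.

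The phosphatase genes did not pass the test in the Ep400 ko clones. *Dusp4*, which encodes a nuclear ERK phosphatase, had 39.4, 33.1, 68.2 and 34.7 CPM in wildtype cells and 96.9, 114 and 20.1 CPM in the clones. Clones Ep400/1 and Ep400/2 were above and Ep400/3 below all wildtype libraries. The log2-fold change of 0.81 (SE 0.51, adjusted p = 0.300 from edgeR) thus averages over clones on opposite sides, and without Ep400/3 it was 1.26 (adjusted p = 0.0312). *Dusp6* had 69.9, 71.6 and 45.3 CPM in the clones, with a log2-fold change of 0.17 (95% confidence interval −0.30 to 0.64).

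*Fgfr1* and *Fgfr2* overlapped with wildtype as well. *Fgfr1* had 289, 536 and 494 CPM in Ep400 ko clones (log2-fold change 0.37, 95% confidence interval −0.36 to 1.10). *Fgfr2* had 4.81, 36.2 and 16.8 CPM, a range of 2.90 on the log2 scale and the widest of any gene in any group. Its log2-fold change of 0.63 (95% confidence interval −0.61 to 1.86) turned to −0.23 without Ep400/2.

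**Figure D2:**
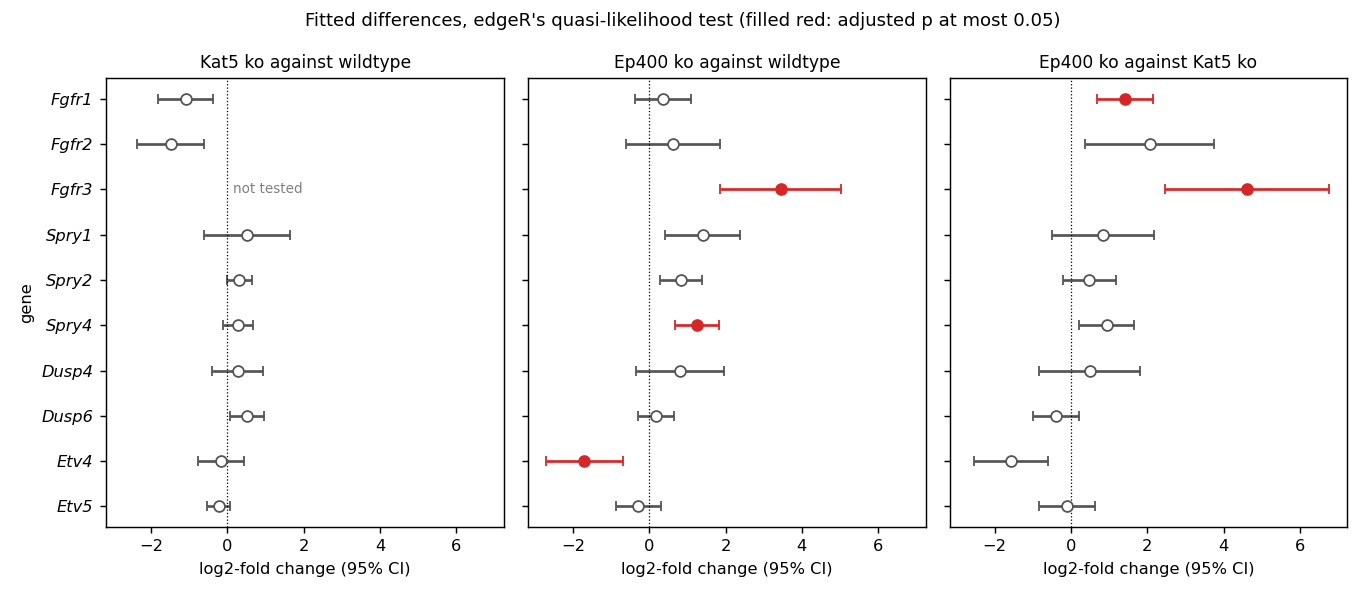
Log2-fold change of each gene with its 95% confidence interval in the 3 comparisons, from edgeR's quasi-likelihood fits. Filled red points are genes with an adjusted p of at most 0.05: none for Kat5 ko against wildtype, *Fgfr3*, *Spry4* and *Etv4* for Ep400 ko against wildtype, and *Fgfr1* and *Fgfr3* for Ep400 ko against Kat5 ko.

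Among clones of the same knockout, the lowest or the highest level often fell to the same clone for several of these genes. Whether the order of the clones differed from that over all genes was not tested. Some of these genes also varied together over the libraries, such as *Spry2* and *Spry4*, so they are not independent cases. Clone Ep400/3 had the lowest level of the Ep400 ko clones for 6 genes (*Spry2*, *Spry4*, *Dusp4*, *Dusp6*, *Etv4* and *Etv5*) and the highest for *Spry1* alone. Clone Ep400/2 was highest for the other 9 genes. Mitochondrial genes took 3.24% of the reads of Ep400/3 and 0.893% to 2.43% of those of the other libraries, and the part of this share in the result was not tested. In the Kat5 ko clones, Kat5/2 was lowest and Kat5/1 highest for 6 genes each, 5 of them the same, namely *Fgfr1*, *Fgfr2*, *Dusp6*, *Etv4* and *Etv5*. Among the wildtype libraries, library 3 was highest for 5 genes, among them *Etv4* at 249 CPM against at most 138 CPM in the others.

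**Figure D3:**
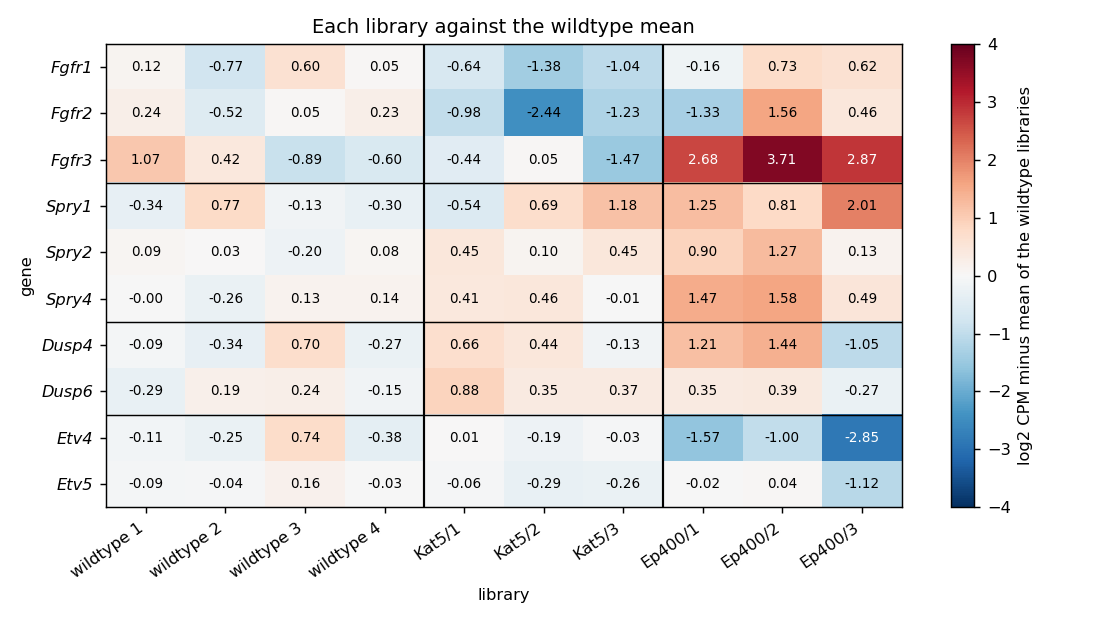
Difference of each library from the mean of the 4 wildtype libraries, as log2 CPM with a prior count of 2, for the 10 genes (rows, ordered by receptors, Sprouty genes, phosphatases and PEA3 factors). In clone Ep400/3 the difference was −2.85 for *Etv4*, −1.12 for *Etv5* and −1.05 for *Dusp4*, whereas *Fgfr3* was at 2.87 and *Spry1* at 2.01.

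Whether the knockouts differed from each other was tested directly, without the wildtype libraries. Of the 9 genes other than *Fgfr3*, 1 was called, *Fgfr1*, which was higher in Ep400 ko than in Kat5 ko clones, beside 7.32% of all genes called (994 of 13587). For *Fgfr1* the lowest Ep400 ko clone had 289 CPM and the highest Kat5 ko clone 206 CPM. The log2-fold change was 1.41 (SE 0.31, adjusted p = 0.0436 from edgeR), or 2.66-fold. *Fgfr3* had 139 reads in the Ep400 ko clones and 5 in the Kat5 ko clones, with a ratio of CPM of 27.1 (exact 95% interval 11.3 to 84.8, counting error only) and a log2-fold change of 4.62 (SE 0.93, adjusted p = 0.0365 from edgeR). *Fgfr3* again passed the filter only through the Ep400 ko clones and had to be higher there. The call of *Fgfr1* was lost without Kat5/2, Kat5/3, Ep400/2 or Ep400/3 (log2-fold change 1.24 to 1.40, adjusted p 0.113 to 0.151), and that of *Fgfr3* without any clone but Kat5/1 (3.98 to 5.43, adjusted p 0.0568 to 0.114).

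*Etv4* and *Spry4* did not overlap between the knockouts either, as 38.5% of all genes did not. *Etv4* was lower in the Ep400 ko clones with a log2-fold change of −1.57 (SE 0.42, adjusted p = 0.0587 from edgeR), and *Spry4* was higher with 0.94 (SE 0.31, adjusted p = 0.0915 from edgeR). In a single fit of all 10 libraries, both passed, with adjusted p of 0.0244 and 0.0275 from edgeR. That fit called 25.1% of all genes (3539 of 14079). Of 14 alternatives, *Etv4* passed in 4 and *Spry4* in 1. *Fgfr2* had a log2-fold change of 2.06 with a wide 95% confidence interval of 0.37 to 3.76 (adjusted p = 0.101 from edgeR). For *Spry1*, *Spry2*, *Dusp4*, *Dusp6* and *Etv5* the adjusted p lay between 0.301 and 0.848.

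Likeness of pattern was described by Pearson's r of log2 CPM over the 10 libraries among 13094 genes, without a test, since libraries of a group share their genotype. *Fgfr1* and *Fgfr2* had r = 0.87, *Spry2* and *Spry4* 0.86, *Etv4* and *Etv5* 0.75 and *Dusp4* and *Dusp6* 0.648. Likeness did not always follow the family, since *Dusp4* had higher values with *Spry4* (0.71), *Etv5* (0.67) and *Spry2* (0.652), and *Spry1* had 0.29 with *Spry2* and 0.33 with *Spry4*. At the other end, *Spry1* had r = −0.76 with *Etv4* and −0.67 with *Etv5*, and *Spry4* and *Etv4* had −0.49. In each case the closest genes of all were others. They were *Bcas3*, *Tbc1d17* and *Calcoco1* for *Fgfr1* (r = 0.97 each), *Zrsr1*, *Fdft1* and *Arhgap24* for *Fgfr2* (0.97), *Efcab14*, *Fbxw7* and *Cyb5d2* for *Spry1* (0.92 to 0.95) and *Wsb2*, *Polr2j* and *Nav2* for *Spry2* (0.93 to 0.94). For *Spry4* they were *Gclc*, *Glud1* and *Acyp2* (0.97 to 0.98), for *Dusp4* *Rps6ka4*, *Fxyd5* and *Rin1* (0.91 to 0.94) and for *Dusp6* *Sdccag3*, *Rhno1* and *Mrgbp* (0.94 to 0.95). *Ndst3*, *Cit* and *G6pdx* were closest to *Etv4* (0.94 to 0.98) and *Arpc2* (0.91) and *Rtn4* (0.90) were among those closest to *Etv5*. Among the 13093 other genes, *Fgfr2* was at rank 222 in likeness to *Fgfr1*, *Spry4* at rank 50 for *Spry2* and *Etv5* at rank 748 for *Etv4*.

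The remainder of the pathway and related FGF and MAP kinase genes were represented by 109 genes in 7 lists, from ligands to outputs. In Kat5 ko clones, 2 of the 88 tested were called, both higher and both outputs of ERK, at 0.499% of all genes. They were *Egr1*, an immediate early transcription factor, and *Hbegf*, a growth factor of the EGF family. *Egr1* had 4.95, 6.41, 3.89 and 4.06 CPM in wildtype cells and 28.2, 34.2 and 26.8 CPM in the clones (log2-fold change 2.59, SE 0.23, adjusted p = 0.00924 from edgeR). *Hbegf* had 45.0 to 72.1 CPM in wildtype cells and 109, 128 and 160 CPM in the clones (log2-fold change 1.27, SE 0.20, adjusted p = 0.0466 from edgeR). For neither gene did the clones overlap with wildtype. These calls depended on the fit. No pathway gene was called in 1 fit of all 10 libraries, with a replicate block or without wildtype library 1 or 4, and *Egr1* alone was called without wildtype library 3, Kat5/2 or Kat5/3 and with chromosome offsets. Without Kat5/1 14 were called, in a fit that called 19.3% of all genes. Of the 15 tested outputs 13 had a positive log2-fold change, with a median of 0.58 beside 3.24e-05 over all genes. In the other 6 lists 0 genes were called. Their most abundant genes were *Fgf7* (log2-fold change 0.36), the heparan sulfate carrier *Gpc1* (−0.95, adjusted p = 0.0705 from edgeR, 253 ± 31.4 against 478 ± 100 CPM), the phosphatase *Ptpn11* (0.36), the RAF inhibitor *Pebp1* (−0.08), *Dusp7* (0.18) and the ETS factor *Elk3* (−0.09).

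In Ep400 ko clones, 20 of 89 pathway genes were called, 10 higher and 10 lower, at 13.9% of all genes, and the median log2-fold change of those tested was −0.03. Of the called genes, 18 had libraries with at least 10 reads in both groups. The other 2 passed the filter only through the group in which they were higher, *Fgf21* through wildtype cells and *Egr2* through the clones. Of the 18, *Fgfbp1* had at least 10 reads in only 2 clones, and it too owed its pass of the filter to wildtype cells. Among 6 tested genes of the FGF family, *Fgf10* rose from 83.8 ± 25.8 to 218 ± 93.2 CPM (log2-fold change 1.38) and *Fgf7* from 80.1 ± 14.1 to 151 ± 26.8 CPM (0.92). Both are mesenchymal ligands of the IIIb isoform of Fgfr2. *Fgf21*, a metabolic hormone, had 125 reads over the wildtype libraries and 0 in the clones, at least 32.0-fold lower when 3 reads over the group are taken as the floor. In Kat5 ko clones *Fgf21* had 0, 0 and 5 reads, below each wildtype library in CPM, as for 10.2% of all genes. Its log2-fold change there was −4.20 (adjusted p = 0.0955 from edgeR), and it entered that test through wildtype cells only. The added ligand FGF2 had little RNA of its own, since *Fgf2* averaged 0.181 CPM in wildtype cells, 0.485 CPM in Kat5 ko and 0.330 CPM in Ep400 ko clones.

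Among 15 co-receptors and binding proteins, 3 rose and 2 fell. The log2-fold changes of those that rose were 1.64 for the glypican *Gpc6*, 1.38 for the syndecan *Sdc2* and 1.12 for the syndecan *Sdc4*, all carriers of heparan sulfate. The other tested glypicans and syndecans did not pass, with 0.36 for *Gpc1*, −0.03 for *Gpc4*, −0.36 for *Sdc1* and 0.42 for *Sdc3*. The value for *Gpc4* averages over unlike clones, with 0.164 CPM in Ep400/1 and 24.8 and 25.6 CPM in Ep400/2 and Ep400/3. Its wildtype mean was 17.2 CPM. *Fgfbp1*, a secreted carrier of FGFs, fell from 8.24 ± 3.24 to 0.281 ± 0.160 CPM (log2-fold change −4.83) and the adhesion molecule *Ncam1* by 0.94 on the log2 scale. With 19, 4 and 11 reads in the clones, *Fgfbp1* passed the filter through wildtype cells, so that its call carries the same limit as that of *Fgf21*. Adaptors and kinases of the cascade were mostly not called. Of 22, the adaptor *Frs2*, which docks on FGF receptors, rose (0.57) and *Rps6ka1*, a kinase downstream of ERK, fell (−1.47).

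Among 15 other inhibitors, *Il17rd*, a membrane protein that antagonizes FGF signalling, rose from 2.88 ± 1.56 to 11.2 ± 6.78 CPM (log2-fold change 1.96), while the RAS GTPase activators *Nf1* (−0.76) and *Rasa2* (−0.73) fell. Of 8 other MAP kinase phosphatases, *Dusp10* rose (1.61) and *Dusp9* (−3.04), *Dusp8* (−1.84) and *Dusp16* (−0.52) fell. None of the 7 other ETS factors was called, and the most abundant, *Elk3*, had a log2-fold change of 0.09. Among 16 other outputs, *Egr1* rose (2.17) and *Lif* (−2.54), a cytokine that maintains embryonic stem cells, fell. *Egr2*, with 3 to 7 reads per wildtype library and 86, 24 and 14 in the clones, was called higher (3.07) but could enter the test only by being higher there. *Egr1* varied from 6.67 CPM in Ep400/3 to 45.0 CPM in Ep400/1. Of the 16 outputs 11 had a positive log2-fold change, with a median of 0.47 beside 0.043 over all genes. The lean of this list to positive values was thus present in both knockouts. The adjusted p of these 20 genes lay between 0.00290 and 0.0473 in edgeR's quasi-likelihood test.

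**Figure D4:**
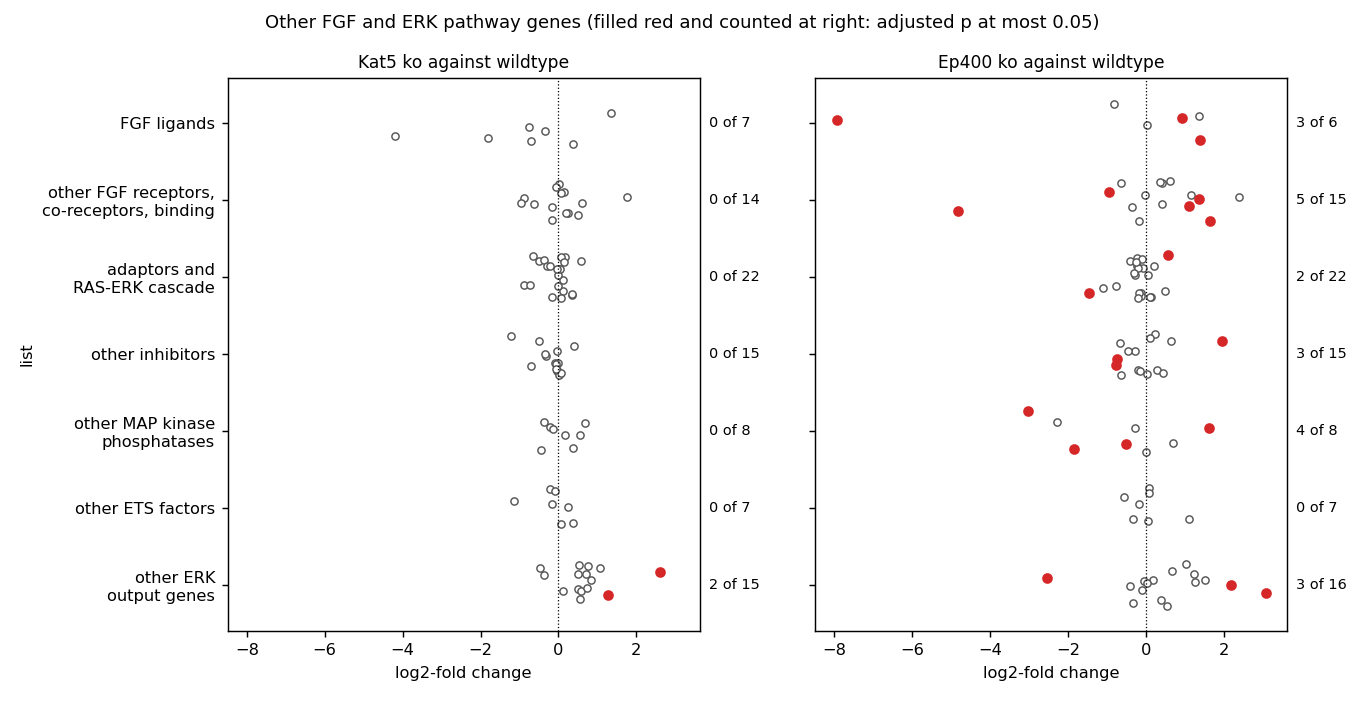
Log2-fold changes of the other tested FGF and ERK pathway genes by list (rows, points spread vertically for legibility), for Kat5 ko and Ep400 ko clones against the same wildtype libraries. Filled red points are genes with an adjusted p of at most 0.05, counted at the right of each row. The leftmost point among the ligands is *Fgf21*, whose fitted value depends on the prior count because all Ep400 ko clones had 0 reads.

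Tested directly between the knockouts, 9 of 88 pathway genes differed (5 higher and 4 lower in Ep400 ko clones), beside 7.32% of all genes. *Dusp8*, *Phlda1*, *Lif* and *Fgfbp1* were lower, the last having passed the filter through the Kat5 ko clones. *Fgf10*, *Sdc2*, *Gpc1*, *Il17rd* and *Etv1* were higher. *Etv1*, the third PEA3 gene, thereby contrasted with *Etv4*. It had 38.3, 41.2, 101 and 45.6 CPM in wildtype cells, 30.4, 22.0 and 26.6 CPM in Kat5 ko clones and 83.9, 165 and 120 CPM in Ep400 ko clones. The log2-fold change between the knockouts was 2.2 (SE 0.29, adjusted p = 0.0206 from edgeR), whereas Ep400 ko clones and wildtype cells overlapped (1.12, adjusted p = 0.0779). *Etv1* and *Phlda1* are named here after their values had been seen.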

How the data were processed

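RNA of the 10 libraries was prepared with a stranded poly-A kit and sequenced as paired reads. The submitters' processing notes name bcl2fastq 2.20, STAR 2.7.3, R 4.2.1, DESeq2 1.36.0 and the build mm10, and the annotation and strand setting of counting are not given in the sources used here. The deposited raw values are counts of reads on each gene, as the authors made them, and the deposited normalized tables were not used. From the counts, genes were filtered with filterByExpr (minimum count 10), scaled by TMM and tested with edgeR 4.0.16 (R 4.3.3) within each pair of groups, by the quasi-likelihood test with Benjamini-Hochberg adjustment over all genes tested. Standard errors are the absolute log2-fold change divided by the square root of F. Alternatives used DESeq2 1.42.0, limma 3.58.1, other scaling, no filter, 1 fit of all libraries, a replicate block, chromosome offsets and each library left out. Libraries of a group differed beyond counting noise. On simulated data with 200 genes changed by 2 (log2), 145 were recovered with 8 false calls for Kat5 ko against wildtype (13434 genes), 146 with 11 for Ep400 ko against wildtype (13836) and 116 with 10 between the knockouts (13587), and without change 0 were called. Exon lengths and coordinates come from GENCODE M21 (GRCm38, the same build as mm10). Named were the 10 genes, *Kat5* and *Ep400*, up to 3 called genes per pathway list and direction against wildtype or else the list's most abundant gene, and the 3 genes closest in pattern, of which 1 is not reported here. *Adgre1* was found as *Emr1* by its identifier, and *Spry3* had no row. The genes, lists and tests were chosen with earlier results of these data known.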

Additional observations from a re-analysis of the deposited data

Results flagged for a closer look

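Among the 36 genes whose 4 wildtype libraries were screened for a sample far from the others (Dixon's test at the 95% level, which chance alone passes in about 1 of 20 groups), 3 were found. Wildtype library 2 had 2.196 CPM of *Spry1*, while the others had 0.990 to 1.15 CPM. Wildtype library 3 had 33.8 CPM of *Sdc4*, below the others, and 70.5 CPM of *Rps6ka1*, above the others.

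The responses to the knockouts differed from each other, by edgeR's quasi-likelihood test of Ep400 ko against Kat5 ko clones, for *Fgfr1* (log2-fold change 1.41, adjusted p = 0.0436) and *Fgfr3* (4.62, adjusted p = 0.0365), the latter a gene that passed the filter only through the Ep400 ko clones. Among the other pathway genes named, they differed for *Fgf10* (1.67), *Sdc2* (1.32), *Gpc1* (1.26) and *Il17rd* (3.12), which were higher in Ep400 ko clones, and for *Fgfbp1* (−4.25), *Dusp8* (−2.58) and *Lif* (−3.11), which were lower, with adjusted p between 0.0242 and 0.04996. *Fgfbp1* passed the filter through the Kat5 ko clones, where it was higher.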

How the results depend on the processing

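Among the 10 genes, no called log2-fold change turned its direction under the alternatives run, although *Fgfr3* could enter the main test only by being higher in Ep400 ko clones. Directions turned for genes that were not called: *Etv4* in Kat5 ko without wildtype library 3 (log2-fold change 0.15), *Fgfr2* in Ep400 ko without Ep400/2 (−0.23), *Etv5* in Ep400 ko without Ep400/3 (0.0041), and *Etv5* between the knockouts with library size alone (0.011), chromosome offsets (0.0065) and without Ep400/3 (0.19). Over all libraries left out in turn, these log2-fold changes lay between −0.28 and 0.15, −0.23 and 1.08, −0.49 and 0.0041, and −0.29 and 0.19.

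Counts of called genes moved more, and so did the share of all genes called. In Kat5 ko it was 6.31% with DESeq2, 1.11% without a filter, 0.185% in 1 fit, 0.618% with chromosome offsets and 22.3% at unadjusted p. In Ep400 ko it was 14.2% with DESeq2, 6.48% with the study's limits and 32.3% at unadjusted p. Between the knockouts it was 13.6% with DESeq2, 8.08% without a filter, 25.1% in 1 fit, 5.51% with the study's limits and 32.4% unadjusted. For the 10 genes in Kat5 ko, 0 became 2 with DESeq2 and 3 at unadjusted p, in Ep400 ko 3 became 5 with DESeq2 and at unadjusted p, and between the knockouts 2 became 4 with DESeq2, 5 in 1 fit of all libraries, 5 at unadjusted p and 1 with the study's limits on fold and mean. Wherever *Fgfr3* was called, these and the following counts of the 10 genes include it. It passed the filter only through the Ep400 ko clones, so its call adds nothing to them. Likewise, the counts of other pathway genes include *Fgf21*, *Egr2* and *Fgfbp1* where these were called. The other pathway genes called in Kat5 ko numbered 12 with DESeq2, 5 without a filter, 0 in 1 fit, 1 with chromosome offsets and 18 at unadjusted p. In Ep400 ko they numbered 12 with the study's limits and 36 at unadjusted p, and between the knockouts 21 with DESeq2, 14 without a filter, 22 in 1 fit and 31 at unadjusted p. With each library left out, the 10 genes gave 0 to 2 calls in Kat5 ko, 1 to 4 in Ep400 ko and 0 to 2 between the knockouts. The other pathway genes gave 0 to 14, 7 to 22 and 0 to 16. Of all genes, 0.00752% to 19.3%, 6.01% to 14.3% and 0.029% to 18% were called in these fits. The 19.3% and 18% were without Kat5/1. The 10 genes gave 2 calls in Kat5 ko without Kat5/1, 1 call in Ep400 ko without wildtype library 1 or 4, and between the knockouts 1 without Ep400/1 and 0 without Kat5/2, Kat5/3, Ep400/2 or Ep400/3. The other pathway genes gave in Kat5 ko 0 without wildtype library 1 or 4, 1 without wildtype library 3, Kat5/2 or Kat5/3 and 14 without Kat5/1, in Ep400 ko 7, 9 and 10 without wildtype libraries 1, 2 and 4, and between the knockouts 0 without Kat5/3, Ep400/2 or Ep400/3, 1 without Kat5/2, 5 without Ep400/1 and 16 without Kat5/1.

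With a replicate block, the 10 genes gave 0 calls in each comparison and the other pathway genes 0, 2 and 3, with log2-fold changes of 3.29 for *Fgfr3*, 1.23 for *Spry4* and −1.90 for *Etv4* in Ep400 ko. Of all genes, 0, 170 and 213 were called. The numbers did not pair the libraries, with correlations of −0.097 to 0.23 between same-numbered libraries. Scaling by library size alone shifted the median of all genes by 0.13 (log2) between the knockouts and left its 2 calls. The cause of these changes was not tested. With 0 to 8 reads per library outside the Ep400 ko clones, *Fgfr3* is limited by counting, and p-values measure the spread among 3 clones of 1 line.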
